A study of Mus musculus with 6 samples.

Results

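The small leucine-rich proteoglycans (SLRPs) are a family of secreted matrix proteins, and their RNA was followed here in 2 regions of the mouse incisor, a tooth that grows throughout life. The members were taken by name from a list of 10 genes, Lum, Dcn, Bgn, Fmod, Ogn, Omd, Aspn, Kera, Prelp and Epyc, which was chosen by the TAC to MSC ratio of lumican: Lum was already known to be among the larger changes between the regions and the rest of its family was added by name. Of these, 9 had a row among the 23718 genes of the deposited table and Kera was not analysed here. The choice used the TAC minus MSC difference itself, so the members' differences between the regions are given as description, and counts of members called in that contrast, printed beside the share of all genes, support nothing.

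Each SLRP has a core of leucine-rich repeats, a curved domain that lies along collagen fibrils and limits their growth and spacing. Many members carry chains of chondroitin, dermatan or keratan sulfate, and several also hold growth factors such as TGF-beta or engage cell surface receptors. In the tooth, decorin, biglycan, lumican and osteomodulin are known from predentin and dentin, and asporin is best known from the periodontal ligament.

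The MSC libraries were made from Gli1-CreER;tdT mice and the TAC libraries from Axin2-CreER;tdT mice, with 3 libraries in each group, from animals 1 month old. The methods of the study write out the alleles as Gli1-CreERT2;Rosa26<fs-tdTomato> and Axin2-CreERT2;Rosa26<fs-tdTomato>. The labels give the strain as C57BL/6, whereas the methods speak of a mixed background. MSC stands for mesenchymal stem cells and TAC for transit amplifying cells, the dividing progeny that later form odontoblasts. All mice carried a tamoxifen-inducible Cre and a red fluorescent reporter, and by the methods of the study they were killed 1 day after tamoxifen. Labelled cells were cut from sections by laser capture, so each library holds the RNA of everything in the captured area, and the groups differ in the Cre driver as well as in the region. In such bulk samples fewer cells of a type and less RNA per cell cannot be told apart.

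Values are the deposited normalized values, a read number scaled per library, so that 1 gene may be compared across libraries. Members were compared with each other only after division by the exonic length in kilobases (kb). The sums of marker lists add values without that division, so genes with longer transcripts weigh more in them. Replicate 3 of both groups stood apart from replicates 1 and 2. Mitochondrial ribosomal RNA took 8.28% to 9.07% of estimated reads in replicates 1 and 2, and only 0.236% (MSC) and 0.112% (TAC) in replicate 3. The share of listed genes without a read was 6.89% to 8.36% in replicates 1 and 2, 43.1% in MSC replicate 3 and 28.3% in TAC replicate 3. Estimated reads ran from 20203159 to 25567244 in replicates 1 and 2 and reached 59793645 and 108156380 in MSC and TAC replicate 3. Results are therefore also given with replicate 3 set apart. The genes that name the drivers overlapped between the groups, with Gli1 at 245 to 422 in MSC and 141 to 396 in TAC, and Axin2 at 12.01 to 58.3 in MSC and 34.1 to 63.9 in TAC.

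Most members sit in 3 clusters of neighbouring genes on the mouse genome (mm10). On chromosome 10, Dcn (chr10:97479609-97518143), Lum (chr10:97565128-97572703), Kera and Epyc (chr10:97644068-97682454) follow each other on the plus strand within 202.8 kb. On chromosome 13, Ecm2, which is no member of the list, Aspn (chr13:49544443-49567565), Omd (chr13:49582462-49592822) and Ogn (chr13:49608046-49624501) lie on the plus strand within 119.7 kb. On chromosome 1, Optc, which was not analysed here, Prelp (chr1:133910304-133921414, minus strand) and Fmod (chr1:134037254-134048277, plus strand) span 151.1 kb. Bgn stands alone on chromosome X (chrX:73483602-73495933, plus strand).

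The chromosome 13 neighbours are shown with their promoters because, as described below for their values, they did not share a direction between MSC and TAC although only 14.9 kb separate Aspn from Omd and 15.2 kb Omd from Ogn. The Bgn promoter is added as that of the member with the highest level per kb in every MSC library. The RefSeq (GRCm38.p6) promoter table used here held an entry for 8 of the 10 members, and none was found in it for Lum or Dcn. Each sequence is the 250 bases before the transcript start, 5′ to 3′ on the strand of the gene, and capitals mark, on either strand, the letters of a TATA box (TATAAA), of a GC box (GGGCGG) or of a CCAAT box.
Aspn (chr13:49544193-49544442, plus strand): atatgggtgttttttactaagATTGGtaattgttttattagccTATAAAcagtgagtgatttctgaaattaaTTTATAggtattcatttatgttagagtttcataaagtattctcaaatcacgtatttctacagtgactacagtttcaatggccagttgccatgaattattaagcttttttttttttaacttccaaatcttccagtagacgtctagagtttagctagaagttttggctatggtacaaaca
Omd (chr13:49582212-49582461, plus strand): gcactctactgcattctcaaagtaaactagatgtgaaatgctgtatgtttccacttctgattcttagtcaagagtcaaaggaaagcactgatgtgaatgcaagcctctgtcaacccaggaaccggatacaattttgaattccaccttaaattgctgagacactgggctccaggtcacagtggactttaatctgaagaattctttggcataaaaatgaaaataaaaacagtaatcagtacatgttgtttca
Ogn (chr13:49607765-49608014, plus strand): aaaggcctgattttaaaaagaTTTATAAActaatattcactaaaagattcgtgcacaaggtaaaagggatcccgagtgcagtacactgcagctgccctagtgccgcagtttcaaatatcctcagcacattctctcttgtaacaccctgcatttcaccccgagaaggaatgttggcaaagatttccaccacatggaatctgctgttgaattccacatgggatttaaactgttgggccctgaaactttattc
Bgn (chrX:73483351-73483600, plus strand): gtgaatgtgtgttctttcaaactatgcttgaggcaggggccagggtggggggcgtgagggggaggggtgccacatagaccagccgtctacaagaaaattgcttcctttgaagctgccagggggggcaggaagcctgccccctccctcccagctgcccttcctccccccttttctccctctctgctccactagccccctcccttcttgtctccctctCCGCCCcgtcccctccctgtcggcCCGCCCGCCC
The 3 neighbours were poor in G and C, at 30.0% for Aspn, 38.4% for Omd and 42.0% for Ogn, against a median of 52.4% over the 32851 windows of 250 bases in the RefSeq table. The Bgn window, at 64.4%, lay above that median. It held 3 matches to GGGCGG, which start 34, 10 and 6 bases before the transcript start, whereas the chromosome 13 windows held none. TATAAA occurred at 2 places in Aspn and at 2 overlapping places in Ogn, all starting at least 178 bases before the transcript start, and CCAAT occurred once, in Aspn. Omd held none of the motifs. Of all windows, 12.37% held the TATA letters, 32.74% the GC box letters and 33.85% the CCAAT letters, and a match of letters is not a binding site.

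Lum and Dcn, neighbours on chromosome 10, were higher in every TAC library than in any MSC library. Lum encodes lumican, a keratan sulfate proteoglycan that spaces collagen fibrils in the cornea and is also found in dentin. Its value was 69.2, 64.4 and 56.8 in the MSC libraries (replicates 1, 2 and 3) against 271, 274 and 400.1 in the TAC libraries. The lowest TAC library was thus far above the highest MSC library, and these values rest on 2222 to 105534 estimated reads. MSC averaged 63.5 ± 6.24 and TAC 315 ± 73.5 (SD, n = 3 each), a ratio of 4.97. On the log2(value + 1) scale the TAC minus MSC difference was 2.27 ± 0.28 (SE). Within replicate numbers the TAC to MSC ratio of Lum was 3.92, 4.26 and 7.04.

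Dcn encodes decorin, a small dermatan or chondroitin sulfate proteoglycan that binds collagen and TGF-beta. Decorin RNA measured 39.1, 39.96 and 30.97 in the MSC libraries (replicates 1, 2 and 3) against 64.2, 63.8 and 118 in the TAC libraries. The groups did not overlap, and TAC replicate 3 was the highest library, at 1.85 times the mean of the other two TAC libraries. MSC averaged 36.7 ± 4.96 and TAC 82.1 ± 31.4 (SD, n = 3 each), a ratio of 2.24 and a log2 difference of 1.09 ± 0.33 (SE). Per kb, Lum exceeded Dcn 4.22, 3.84 and 4.38 times in MSC and 10.1, 10.3 and 8.07 times in TAC. Divided by the length of the mRNA with the longest coding sequence, which is much shorter than all exons for Dcn, the ratio was 1.27, 1.16 and 1.32 in MSC and 3.04, 3.09 and 2.43 in TAC. With either length every TAC library held more lumican RNA per decorin RNA than any MSC library, a ratio within libraries that a scaling factor per library cannot move.

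Of the other genes of the chromosome 10 cluster, Epyc had few reads. It encodes epiphycan, a proteoglycan of growth cartilage. The estimated reads numbered 6, 1 and 0 in the MSC libraries against 14, 16 and 1.9 in the TAC libraries. Its mean over the libraries was 0.166, under the minimum of 1 for the fit, so it was not tested. Of the 6 libraries, 3 were below the 3 reads that a count of 0 still allows, so no ratio is given.

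**Figure D1:**
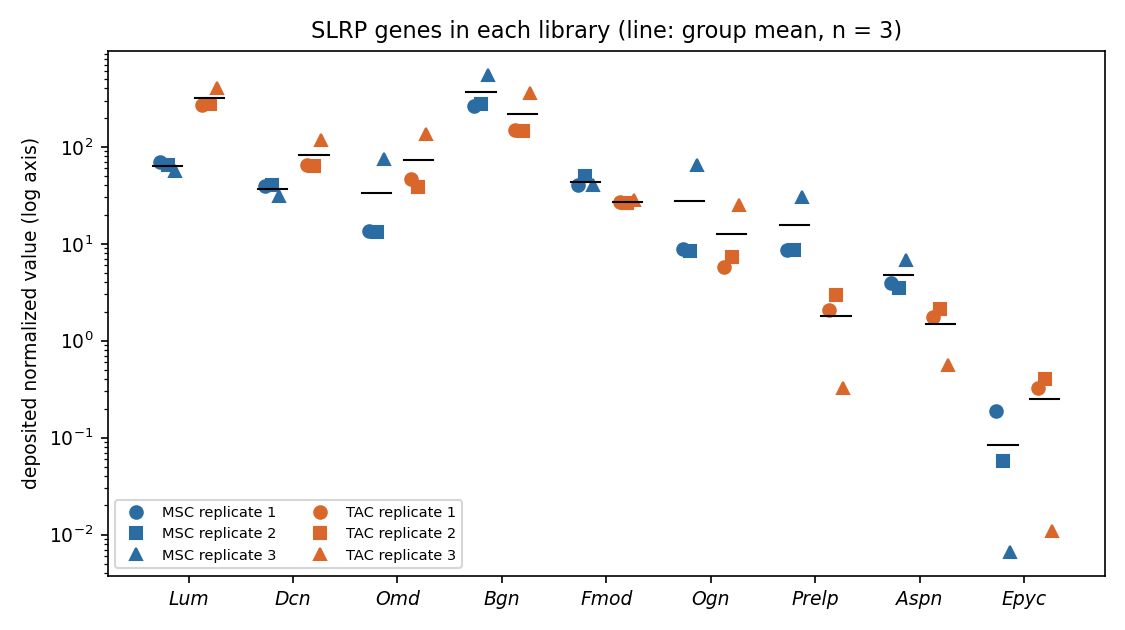
Deposited normalized value (log10 axis) of each of the 9 SLRP genes in each library, with MSC and TAC replicates 1, 2 and 3 as separate points and horizontal bars for group means. Lum lies at 56.8 to 69.2 in MSC and 271 to 400.1 in TAC, whereas Ogn, Omd and Bgn are highest in replicate 3 of their group. Epyc had at most 16 estimated reads, and its lowest point, MSC replicate 3, is 0 reads plus the 1 read added to every value.

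The members with lower RNA in TAC were of more than one kind. Fmod encodes fibromodulin, a keratan sulfate proteoglycan of tendon that competes with lumican for collagen binding. Its value was 40.3, 49.5 and 40.8 in the MSC libraries (replicates 1, 2 and 3) against 26.8, 26.3 and 28.05 in the TAC libraries. The groups did not overlap and the TAC libraries were nearly level. MSC averaged 43.5 ± 5.14 and TAC 27.1 ± 0.883 (SD, n = 3 each), a log2 difference of -0.66 ± 0.25 (SE). Fmod was the member whose level changed least in replicate 3, at 0.908 times the mean of replicates 1 and 2 in MSC and 1.05 times in TAC. Per kb, Lum exceeded Fmod 1.76 to 2.32 times in MSC and 13.6 to 19.3 times in TAC.

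Prelp and Aspn, both of low abundance, were higher in every MSC library than in any TAC library. Prelp encodes prolargin, which has a basic end that binds heparin and anchors basement membranes to connective tissue. Prelp measured 8.55, 8.63 and 30.2 in the MSC libraries (replicates 1, 2 and 3) against 2.10, 2.97 and 0.326 in the TAC libraries. Replicate 3 held the highest MSC value and the lowest TAC value, so the distance between the groups was widest there. MSC averaged 15.8 ± 12.4 and TAC 1.799 ± 1.35 (SD, n = 3 each), a ratio of 8.77 in favour of MSC, with a log2 difference of -2.49 ± 0.70 (SE). Within replicate numbers the MSC to TAC ratio was 4.08, 2.90 and 92.5. The log2 difference was -1.92 without MSC replicate 3 and -2.02 without TAC replicate 3. The difference was -1.03 with a pseudocount of 10, -3.21 with a pseudocount of 0.1 and -5.26 in limma voom on recovered reads, and TAC replicate 3 rests on 85 estimated reads.

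Aspn encodes asporin, which carries a run of aspartate residues, binds calcium and restrains mineralization in the periodontal ligament. Asporin RNA stood at 3.94, 3.54 and 6.73 in the MSC libraries (replicates 1, 2 and 3) against 1.75, 2.11 and 0.561 in the TAC libraries. As for Prelp, the extremes were both in replicate 3. MSC averaged 4.74 ± 1.74 and TAC 1.47 ± 0.811 (SD, n = 3 each), a log2 difference of -1.23 ± 0.55 (SE), which became -0.36 with a pseudocount of 10 and -3.12 in limma voom. Estimated reads behind the TAC values numbered 79 to 147.

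Bgn encodes biglycan, the relative of decorin that is abundant in bone and dentin. Its value was 263, 273 and 555 in the MSC libraries (replicates 1, 2 and 3) against 148, 147 and 362 in the TAC libraries. TAC was lower than MSC within each replicate number, at 0.565, 0.538 and 0.653 of the MSC value, yet the groups overlapped because replicate 3 was 2.07 times the mean of replicates 1 and 2 in MSC and 2.46 times in TAC. MSC averaged 364 ± 166 and TAC 219 ± 124 (SD, n = 3 each), a log2 difference of -0.77 ± 0.49 (SE), which was -0.42 without MSC replicate 3 and -1.20 without TAC replicate 3.

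Omd and Ogn, side by side on chromosome 13, were those most raised in replicate 3 of both groups. Omd encodes osteomodulin, an acidic keratan sulfate proteoglycan of bone and dentin made by osteoblasts and odontoblasts. Its value was 13.5, 13.1 and 74.3 in the MSC libraries (replicates 1, 2 and 3) against 46.2, 38.9 and 135 in the TAC libraries. TAC was higher within each replicate number, by 3.42, 2.98 and 1.82 times, but MSC replicate 3 exceeded the TAC replicates 1 and 2. MSC averaged 33.6 ± 35.2 and TAC 73.4 ± 53.5 (SD, n = 3 each), a log2 difference of 1.35 ± 0.76 (SE). It was 2.15 without MSC replicate 3 and 0.80 without TAC replicate 3.

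Ogn encodes osteoglycin, also called mimecan, a proteoglycan of bone and vessel walls. Osteoglycin RNA was 8.82, 8.35 and 65.2 in the MSC libraries (replicates 1, 2 and 3) against 5.69, 7.38 and 25.1 in the TAC libraries. Replicate 3 was 7.59 times the mean of replicates 1 and 2 in MSC and 3.84 times in TAC, so the groups overlapped. Its log2 difference was -0.68 ± 0.88 (SE), and without MSC replicate 3 the direction turned, to 0.25. Per kb, Omd exceeded Ogn 1.75, 1.79 and 1.30 times in MSC and 9.25, 6.01 and 6.14 times in TAC, a ratio within libraries that did not overlap between the groups. Osteoblast and osteocyte markers (Bglap, Bglap2, Ibsp, Sp7 and Sost) summed to 296 to 448 in MSC and 332 to 1806 in TAC, and both upper ends were those of replicate 3. Bglap, Bglap2 and Sp7 made up most of these sums, while Ibsp was 30.7, 32.9 and 0.00666 in MSC, the last being 0 reads. Sost was 0.504, 0.527 and 0.318 in TAC, so lowest in replicate 3. Odontoblast markers summed to 5199, 5058 and 702 in MSC and 4648, 4609 and 3303 in TAC, lowest in replicate 3 of both groups. Dspp made up most of the odontoblast sums, whereas Sparcl1 was highest in MSC replicate 3 (171) and Phex in TAC replicate 3 (128). The part of these cells in the Omd and Ogn values was not tested.

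Some members share their locus with other transcripts, and the use of strand in counting was not stated. Aspn, Omd and Ogn lie within the span of Cenpp, a centromere gene on the other strand, which shares 7 exonic bases with Aspn and 0 with Omd and Ogn. Cenpp measured 3.33, 1.56 and 0.00666 in the MSC libraries (replicates 1, 2 and 3) against 7.07, 7.60 and 1.87 in the TAC libraries, so it was lowest in replicate 3 of both groups, where Omd and Ogn were highest. Prelp shares 350 exonic bases with the antisense Gm15851, which had 29.2 estimated reads in TAC replicate 1 and at most 0.1 in the other libraries. Epyc shares 1041 exonic bases with the antisense Gm10754, which had 26.1 estimated reads in TAC replicate 3 and 0 elsewhere.

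**Figure D2:**
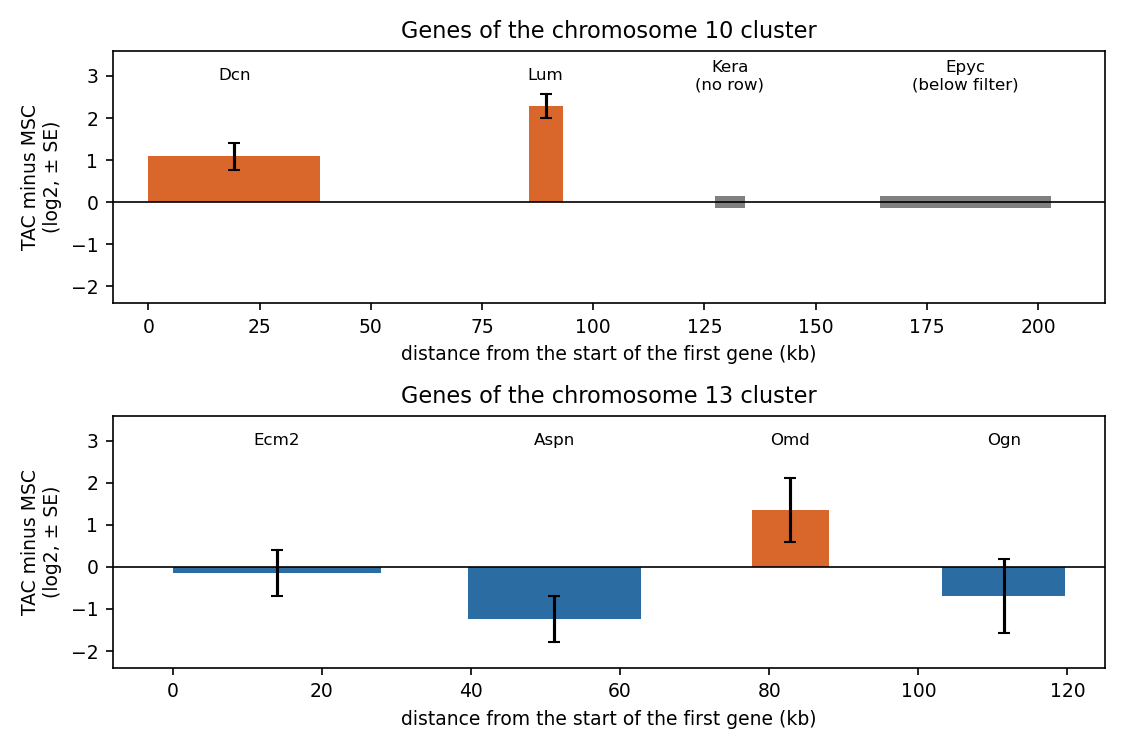
TAC minus MSC log2 difference of SLRP genes in genomic order within the clusters of chromosomes 10 and 13, with the standard error as a whisker and the distance in kb from the first gene of each cluster on the horizontal axis. Grey marks show position only, for genes with no row in the table or too low to be fitted. Lum (2.27) and Dcn (1.09) share a direction, whereas Omd (1.35) stands between Aspn (-1.23) and Ogn (-0.68).

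Over the family, 8 members had a mean of at least 1 and entered the fit. With limma over all 15391 genes tested, 1 member passed an adjusted p of 0.05, Lum, beside 0.422% of all genes, and 0.039% of all genes passed with a higher level in TAC. No member passed with a higher level in MSC, where 0.383% of all genes did. Lum no longer passed when MSC replicate 1, MSC replicate 2, or any 1 TAC replicate was left out, and it passed without MSC replicate 3. Its log2 difference was 2.09 to 2.37 in these fits, and limma called 0 of all genes whenever replicate 1 or 2 of either group was the library left out (3 members at an unadjusted p under 0.05 in each). Both Lum and Dcn lay wholly above MSC in TAC, a pattern of 12.3% of all genes, and Fmod, Aspn and Prelp lay wholly below, as 12.2% of all genes did (24.5% in either direction). With replicates 1 and 2 only, 7 members passed, beside 47.4% of all genes, and in limma voom 0 passed, beside 0.149% (5 at an unadjusted p under 0.05, beside 23.2%). Since Lum's difference led to the choice of the family, nothing is read from these counts. The median log2 difference of the 8 members was -0.67, and that of all genes tested was 0.03.

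**Figure D3:**
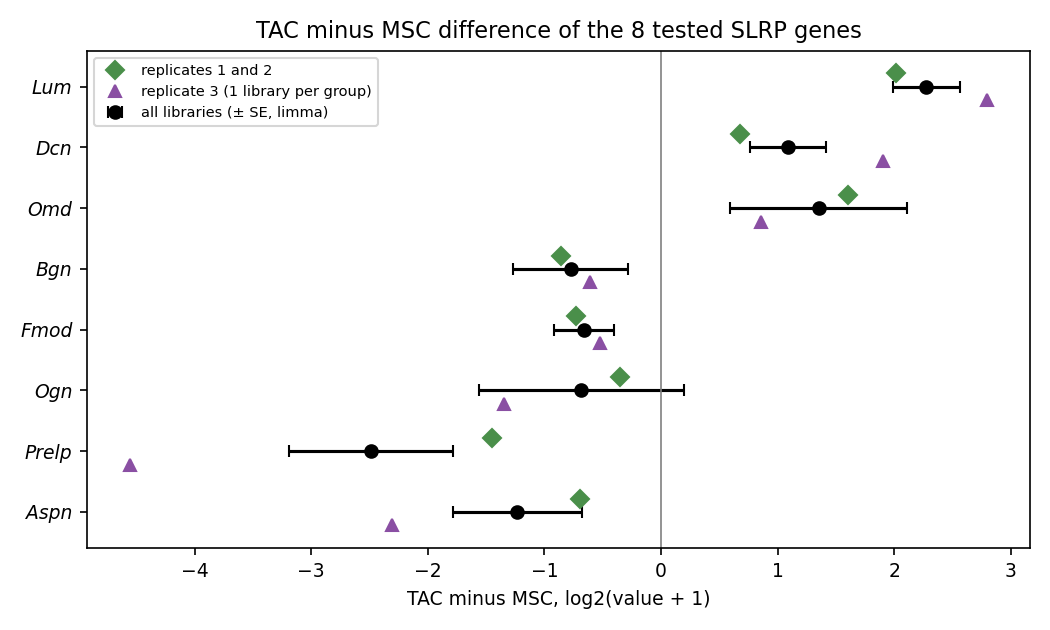
TAC minus MSC log2 difference of log2(value + 1) for the 8 fitted SLRP genes, as all 3 replicates with the standard error, as replicates 1 and 2, and as replicate 3. Each gene keeps its sign between the sets of replicates, and Prelp (-1.45 and -4.55) and Aspn (-0.69 and -2.31) lie farthest apart.

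The size of the difference was compared between the sets of replicates. In limma's test of the interaction the TAC minus MSC difference of replicate 3 differed from that of replicates 1 and 2 for 7 of 8 members, beside 57.2% of all genes. Replicate 3 is 1 library a group and the error is the spread between replicates 1 and 2 alone, so the test does not measure how libraries like replicate 3 vary, and the values are given side by side with no p. The log2 difference of Lum was 2.01 in the first set and 2.79 in the second, and that of Dcn was 0.68 and 1.90. The MSC-high members Prelp, at -1.45 and -4.55, and Aspn, at -0.69 and -2.31, were also further apart in replicate 3. Ogn went the same way, from -0.35 to -1.34. Omd, at 1.60 and 0.85, and Bgn, at -0.85 and -0.61, were closer in replicate 3, and Fmod stood at -0.73 and -0.52. All 8 members kept their sign between the sets, as 61.2% of all genes did. What set replicate 3 apart cannot be told apart from its replicate number, since each group has 1 such library.

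The make-up of the family per kb is given as description, because Lum's TAC to MSC ratio led to the choice of the family. Shares are parts of a whole, so a larger share of Lum lowers the others, and Bgn's own values overlapped between the groups. Bgn ranked first in every MSC library, with 41.5%, 42.3% and 45.2% of the summed SLRP level per kb in replicates 1, 2 and 3, and Lum ranked first in every TAC library, with 62.1%, 63.3% and 50.8%. Lum took 27.2%, 24.9% and 11.5% in MSC, and Bgn took 13.6%, 13.6% and 18.5% in TAC. Behind the leader the order moved with the replicate set. In MSC replicates 1 and 2, Lum was followed by Fmod, Dcn and Omd, whereas in MSC replicate 3 Omd and Ogn ranked above Lum. In TAC replicates 1 and 2 the order after Lum was Bgn, Omd and Dcn, and in TAC replicate 3 Omd and Bgn were nearly level, at 60.1 and 59.4 per kb. The per kb ratio of Lum to Bgn was 0.656, 0.588 and 0.255 in MSC and 4.56, 4.65 and 2.75 in TAC. The length of the mRNA with the longest coding sequence in place of all exons, an alternative chosen after seeing the data, moved these shares and part of the order. Bgn still led in MSC (58.5% to 65.0%) and Lum in TAC, but with 45.9% and 46.8% in replicates 1 and 2 and 35.6% in replicate 3, where Bgn had 32.6%. The ratio of Lum to Bgn was then 0.260, 0.233 and 0.101 in MSC and 1.81, 1.84 and 1.09 in TAC. Dcn then ranked above Fmod in all MSC libraries (11.98%, 11.9% and 4.99% against 6.97%, 8.31% and 3.70%) and above Omd in all TAC libraries (14.6% to 15.1% against 7.22% to 13.1%). The level of Omd was no longer near that of Bgn in TAC replicate 3.

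**Figure D4:**
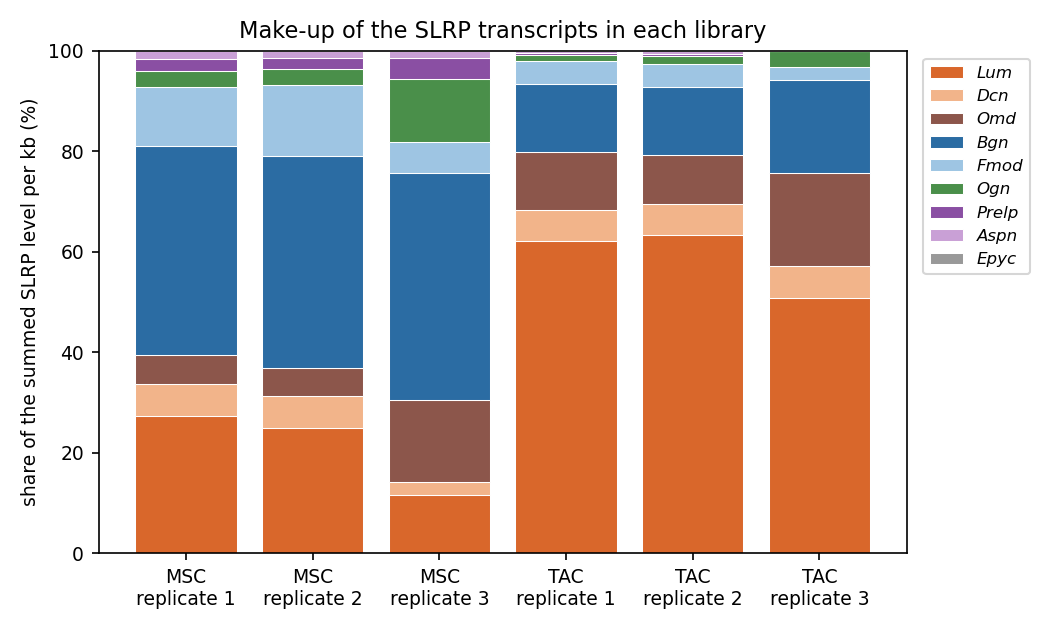
Share of each SLRP gene in the summed SLRP level per kb of exon (percent, stacked to 100) in each of the 6 libraries. Bgn is the widest band in the MSC libraries (41.5% to 45.2%) and Lum in the TAC libraries (50.8% to 63.3%).

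**Figure D5:**
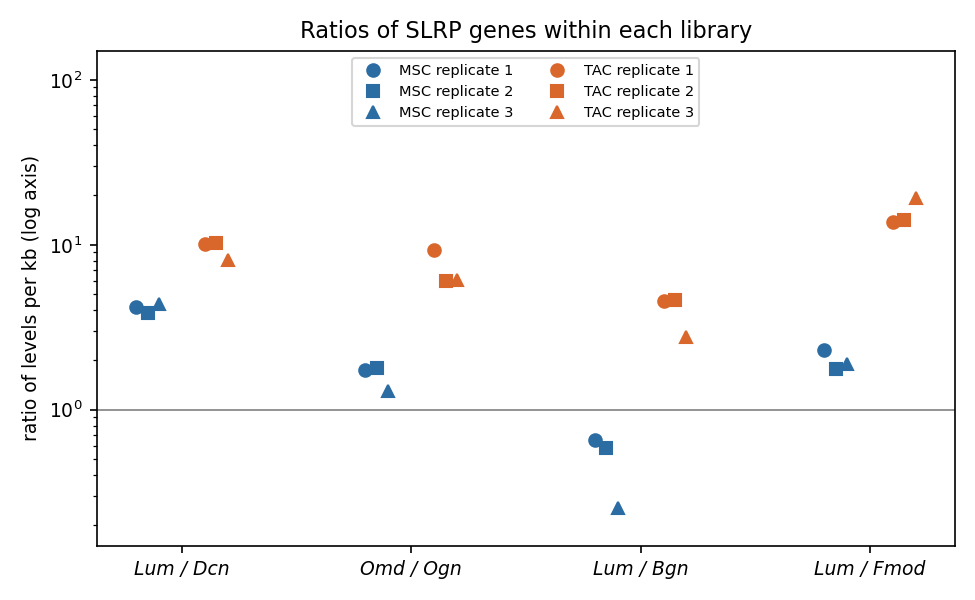
Ratios between pairs of SLRP genes per kb of exon in each library (log axis), with points for MSC and TAC replicates. Lum to Dcn runs from 3.84 to 4.38 in MSC and 8.07 to 10.3 in TAC, and Omd to Ogn from 1.30 to 1.79 in MSC and 6.01 to 9.25 in TAC.

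Genes with a pattern like that of Lum were sought over the 6 libraries among 7844 genes with a mean of at least 10, by Pearson's r of log2(value + 1), given as description because the same groups and replicate sets shape all of them. Among the closest were Ube2c (r = 0.9996), a ubiquitin-conjugating enzyme of mitosis, Rpl7l1 (0.999), Cdca3 (0.997), a mitotic cell cycle gene, and Ccnd1 (0.996), which encodes cyclin D1. Ube2c was 3.53 to 4.13 in MSC and 20.3 to 30.8 in TAC. For Dcn the closest were Slc7a8 (0.997), an amino acid transporter, Psmb5 (0.996), a proteasome subunit, Cstf1 (0.995), Cerk (0.995) and Eif3f (0.994), an initiation factor subunit, while Lum and Dcn gave r = 0.94.

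Other SLRP genes outside the list were measured too. Of 8 named, 7 had a row and 6 were tested, and 0 passed limma's adjusted threshold (2 at an unadjusted p under 0.05, and 0 adjusted and 2 unadjusted in limma voom), where the shares of all genes were 0.422% and 11.9% in limma and 0.149% and 23.2% in limma voom. Tsku, tsukushi, a secreted BMP inhibitor, was 45.6, 45.8 and 42.3 in MSC and 12.7, 10.3 and 24.6 in TAC, with a log2 difference of -1.53 ± 0.37 (SE, adjusted p = 0.17). Podnl1, podocan-like, was 6.33 to 12.3 in MSC and 1.27 to 4.79 in TAC (-1.62 ± 0.56 SE, adjusted p = 0.32). The groups of both genes did not overlap. Podn, podocan, was 9.78, 12.3 and 0.00666 in MSC, the last being 0 reads, and 0.920, 0.575 and 1.78 in TAC, so its difference was -2.78 in replicates 1 and 2 and 1.46 in replicate 3, and over all libraries it was -1.37 in limma and 4.38 in limma voom. Chadl, at -0.86 and 2.64, and Ecm2, the neighbour of Aspn, at 0.34 and -1.10, also had opposite signs in the sets, each with 1 library a group in the second. Chad had 0 reads in replicate 3 of both groups, 255 and 151 in the other MSC libraries and 128 and 159 in the other TAC libraries, and Nyx had at most 21 reads in any library.

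The genes that build, cut or bind SLRPs gave few calls. With the other SLRP genes they made up 6 lists of 100 genes, of which 97 had a row and 91 were tested, and 1 passed, Spock1, beside 0.422% of all genes (1.10% of those tested). At an unadjusted p under 0.05, 12 passed, all higher in MSC, beside 11.9% of all genes, made up of 6.43% higher in MSC and 5.42% higher in TAC. Spock1 encodes testican, a secreted heparan and chondroitin sulfate proteoglycan. It was 20.7, 20.8 and 19.9 in MSC and 1.16, 0.935 and 0.0114 in TAC. The last is below the value of 3 reads in that library (0.0152), which a count of 0 still allows. Its log2 difference in limma was -3.73 ± 0.51 (SE, adjusted p = 0.040, range 5.4e-12 to 0.25 over its alternatives). The size was -1.51 with a pseudocount of 10, -5.29 with a pseudocount of 0.1 and -8.35 in limma voom. Spock1 no longer passed when MSC replicate 1, MSC replicate 2 or any 1 TAC replicate was left out, with a log2 difference of -3.94 to -3.39 in those fits, most of which called no gene at all. It was 1 of 18 other proteoglycan core proteins tested, of which 8 lay wholly lower in TAC and 0 wholly higher, beside 12.2% and 12.3% of all genes. With the replicate number as a block, 3 related genes passed, beside 1.49% of all genes, Spock1 (adjusted p = 0.044), Cspg4 (0.044) and Col6a1 (0.049). Cspg4 encodes NG2, a proteoglycan of pericytes (log2 difference -1.45 ± 0.36 SE, adjusted p = 0.18 without the block), and Col6a1 a chain of the beaded collagen VI that biglycan and decorin bind (-0.93 ± 0.25 SE, adjusted p = 0.19 without it).

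The counts of the next lists stand beside 0.422% of all genes adjusted and 11.9% unadjusted in limma, and 0.149% and 23.2% in limma voom. Enzymes that assemble the glycosaminoglycan chains passed in 0 of 27 cases in limma (1 unadjusted) and in 0 cases in limma voom (3 unadjusted). Xylt1, which starts the chains by adding xylose to the core protein, had a difference of -1.15 ± 0.36 (SE, adjusted p = 0.27), and Chst13, a chondroitin sulfotransferase, 1.02 ± 0.60 (SE, adjusted p = 0.57). In replicates 1 and 2 and in replicate 3, Xylt1 stood at -1.37 and -0.71 and Chst13 at 0.31 and 2.44. Chst13 was low, at 0.826, 0.811 and 0.00666 in MSC, the last being 0 reads, and 1.05, 1.49 and 4.45 in TAC. Its difference was 6.13 in limma voom. Of 14 fibrillar and partner collagens, 0 passed (1 unadjusted; 0 and 2 in limma voom), with Col14a1, a fibril-associated collagen, at -1.46 ± 0.75 (SE, adjusted p = 0.50), which was -0.73 in replicates 1 and 2 and -2.92 in replicate 3. Of 10 proteases that cut SLRPs, 0 passed (2 unadjusted; 0 and 3 in limma voom), and the gelatinases Mmp9 and Mmp2 gave -2.28 ± 0.53 (SE, adjusted p = 0.16) and 0.54 ± 0.30 (SE, adjusted p = 0.54). The same sets gave -1.70 and -3.44 for Mmp9 and 0.53 and 0.56 for Mmp2. Of 16 ligands and receptors bound by SLRPs, 0 passed (2 unadjusted; 0 and 3 in limma voom), with Bmp2 at -0.98 ± 0.39 (SE, adjusted p = 0.38), or -0.74 and -1.47 in these sets. These p-values measure the spread between the libraries of a group, and while the methods give 3 mice a group, the labels do not say that each library is 1 mouse.

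Some sums of markers of other cells in the captured areas separated the groups, as some of the members did. Dental follicle and periodontal ligament markers (Scx, Tnmd, Postn, Mkx and Spon1), where Aspn is best known, summed to 185 to 220 in MSC and 128.5 to 141 in TAC. Smooth muscle and pericyte markers summed to 581 to 1325 in MSC and 44.9 to 52.0 in TAC, and endothelial markers to 129 to 195 and 62.8 to 84.1. The sums of these lists, like Fmod, Aspn and Prelp, were higher in every MSC library. Taken singly, 2 of 5 follicle markers (Mkx and Spon1), 5 of 5 smooth muscle markers and 2 of 5 endothelial markers (Pecam1 and Cdh5) lay wholly higher in MSC, and the others overlapped. Schwann cell markers, at 20.2 to 43.2 in MSC and 6.09 to 19.2 in TAC, also did not overlap as a sum, with 2 of 5 markers wholly higher in MSC. Cycling cell markers summed to 84.2 to 192 in MSC and 259 to 921 in TAC, so their sum, like Lum and Dcn, was higher in every TAC library. The lower end of both groups was in replicate 3, where Lum and Dcn in TAC were at their highest. Singly, 4 of 5 cycling markers lay wholly higher in TAC, and Mki67 overlapped, at 41.5 to 137 in MSC and 122 to 630 in TAC. Mki67 and Top2a made up most of these sums, and other markers of the list differed, with Cdk1 (25.7, 29.2 and 30.9) and Aurkb (16.6, 15.9 and 17.3) highest among the TAC libraries in replicate 3. Ccnb1 was 5.28, 3.01 and 11.3 in MSC and 19.9, 21.4 and 14.6 in TAC. The part of these cells in the members' values was not tested. The sums of the remaining lists overlapped between the groups, with odontoblast markers at 702 to 5199 in MSC and 3303 to 4648 in TAC, dental epithelium at 112 to 2528 and 909 to 2252, chondrocyte at 67.1 to 219 and 66.2 to 194, macrophage at 45.5 to 104 and 30.0 to 87.8, and erythroid at 34.6 to 73.8 and 56.1 to 71.0. Dspp made up most of the odontoblast sum, and Sparcl1 of that list was higher in every MSC library, at 79.9, 85.6 and 171 against 24.3, 23.8 and 18.7 in TAC. Csf1r of the macrophage list was also higher in every MSC library. Amelx made up most of the epithelial sum, and the other markers of that list, Epcam, Cdh1, Krt14 and Krt5, were higher in every TAC library than in any MSC library, as Lum and Dcn were. Sox9 made up most of the chondrocyte sum, and Acan and Col9a1 of that list were higher in every MSC library, while Col2a1 was 0.720, 0.724 and 0.00666 in MSC and 10.7, 13.1 and 0.538 in TAC. The part of these cells was not tested either. No marker was at 0 reads in all 6 libraries, and of the defining markers Scx, Tnmd, Ibsp, Sost, Dmp1, Cnn1, Sox10, S100b, Col2a1, Comp, Adgre1, Epcam, Cdh1, Alas2 and Aurkb were at 0 in at least 1 library.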

How the data were processed

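RNA from 3 MSC and 3 TAC laser-captured incisor samples was sequenced, and groups came from the sample titles. By their methods and processing notes (CASAVA 1.8.2, TopHat2 2.0.8, Partek) the authors aligned trimmed reads to mm10 and then normalized to RPKM. The deposited values were not RPKM but a signal, an estimated read number plus 1 divided by a factor per library, in which gene length was not divided out and 63.2% to 72.3% of low values above 1 read were whole within 0.02 of a step. No count model was therefore used as the main test, and the log-scale test planned for normalized values was kept. How reads were counted, and whether by strand, is not given in the sources used here. All 23718 genes had 10 or more estimated reads in their best library, and 94.6% of symbols were found in GENCODE M21, which gave exons.

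With limma 3.58.1 in R 4.3.3, log2(value + 1) was fitted with the empirical Bayes variance trend for genes with a mean of at least 1, for TAC minus MSC, two-sided, with Benjamini-Hochberg adjustment over all genes tested and a threshold of 0.05. A second model tested whether the TAC minus MSC difference of replicate 3 differed from that of replicates 1 and 2. The fit was also run on simulated data, whose outcome is not reported here and from which nothing is read. The pseudocount understates the change of low genes. The lowest read numbers limit the precision of Aspn, Prelp and Epyc, and a value of 3 reads was the floor for a count of 0, for counting error only.

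Members and lists were chosen with earlier results of these data known. Named genes were all members and other SLRP genes, from each related list those past the threshold (otherwise the largest non-overlapping difference in each direction), the defining markers, the 5 genes most like Lum and Dcn (1 of them is not reported here), and neighbours on the chromosome. Genes called under the replicate block were added. Pairing by replicate number was checked through correlations of deviations from group means. These were 0.477, 0.466 and 0.517 for equal numbers, which meets the condition, and 0.462 and 0.480 for the crossed pairs of replicates 1 and 2, so the shared deviation was that of replicate 3. The pairing rests on the numbers in the titles, and the methods mention pairs for sequencing without saying what they share. Alternatives were other pseudocounts, filters, scalings, variance models and voom, the replicate block, replicate 3 apart, and each library left out.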

Additional observations from a re-analysis of the deposited data

How the results depend on the processing

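Lum, Dcn, Bgn, Fmod, Omd, Aspn and Prelp kept their direction in every alternative in which they were fitted. Ogn turned, to 0.25, without MSC replicate 3. The count of members past the threshold, 1 in the main fit, was 0 with median-ratio scaling, without the variance trend and in limma voom (3, 4 and 5 at an unadjusted p under 0.05). It was 4 with a term for replicate 3 (Lum, Bgn, Fmod and Omd) and 7 with replicates 1 and 2 only, fits that called 11.8% and 47.4% of all genes. Leaving out each replicate gave 0 to 1 (3 to 5 unadjusted), where 0% to 1.8% of all genes were called. With the replicate block it was 1. Of the related genes, 1 in the main fit, 0 passed with a pseudocount of 0.1, a mean of at least 10, no filter, median-ratio scaling or limma voom (12, 9, 12, 13 and 17 unadjusted), 3 passed with the replicate block, 21 with a term for replicate 3 and 59 with replicates 1 and 2 only (1.49%, 11.8% and 47.4% of all genes), and leaving out each replicate gave 0 to 3, the 3 being without MSC replicate 3. Chadl turned, to -0.86, with replicates 1 and 2 only, and also with quantile normalization (-0.19) and without MSC replicate 3 (-0.58). Podn turned in limma voom (4.38), Chad when MSC replicate 1 (0.18) or TAC replicate 3 (0.30) was left out, and Ecm2 with replicates 1 and 2 only (0.34) and without MSC replicate 3 (0.46). The block changed no other call among the members and related genes. The interaction count, 7, ran from 5 to 7 over its 10 alternatives. The causes of these changes were not tested. Scalings moved the median log2 difference of all genes by -0.07 to 0.02. The 3 libraries a group, of 2 kinds, limit the precision.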
